A study of Mus musculus with 4 samples.

Results

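RNA-seq counts of brown adipose tissue (BAT) from mouse fetuses on the last day of gestation were examined for 10 genes that bring fatty acids into cells and carry them there, namely Lpl, Gpihbp1, Angptl4, Vldlr, Cd36, Slc27a1, Slc27a4, Fabp3, Fabp4 and Fabp5. The genes were chosen by name for their known roles, with earlier results of these data known. All 10 were among the 22298 genes listed, and all 10 passed the filter on low counts that left 12888 genes for testing. The 4 libraries came from fetuses labelled C57BL/6 (the study's methods name C57BL/6J mice), 2 of them from dams that drank sterilized tap water (control) and 2 from dams whose drinking water held 20% (w/v) fructose during pregnancy (fructose). The number of fetuses or litters behind a library is not given in the sources used here, so p-values measure the spread between these libraries, which may be technical.

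Brown adipocytes burn fatty acids for heat, and they take part of these acids from circulating lipoproteins. Lipoprotein lipase (LPL), made by the adipocytes, is carried by GPIHBP1 to the capillary wall, where it cuts the triglycerides of lipoproteins, and ANGPTL4 inhibits it. The VLDL receptor binds lipoproteins at the cell surface, CD36 and the fatty acid transport proteins FATP1 (Slc27a1) and FATP4 (Slc27a4) help fatty acids to cross the membrane, and the fatty acid-binding proteins FABP3, FABP4 and FABP5 carry them within the cell.

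Before any comparison, the libraries were checked against their labels. All 4 are labelled male, but 4 genes of the Y chromosome (Uty, Kdm5d, Ddx3y and Eif2s3y) summed to 422 and 390 counts in control but to 0 in each library labelled fructose, which allows up to 0.134 and 0.127 CPM for a gene there (3 counts of the total, counting error only). Since this holds for both fructose libraries, none of the results below could be given without them. The treatment cannot be told apart from this difference or from a difference in fetal sex. The study's methods state that fetal sex was determined by PCR and that BAT of males was taken. The absence of Y-linked counts in the fructose libraries differs from this, and its cause was not tested. Total counts were 18542897 to 19224529 in control and 22461298 to 23645147 in fructose, and the mitochondrially encoded genes held 5.89% to 6.49% and 10.8% to 11.2% of them. The defining markers of the labelled tissue were abundant, as Ucp1, the uncoupling protein of brown fat, was between 9606 and 12425 CPM and Adipoq between 1200.4 and 1553 CPM in the 4 libraries. All 19 tested skeletal muscle markers were higher in both fructose libraries than in both control libraries. Of these, 18 had an adjusted p-value under 0.05 by edgeR. Their summed levels were 336 to 440 CPM in control and 740 to 992 CPM in fructose. CPM are counts scaled to the library's total with TMM normalization, and in bulk tissue fewer cells of a type and less RNA per cell cannot be told apart.

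The binding proteins are a family of short, related genes, and the stretches below are shown because they tell how far a read or a primer can separate the members. They are the 2 sites of the study's own Fabp4 qRT-PCR primers in the coding sequence of Fabp4, followed by the best matching stretch in Fabp5 and in Fabp3, with capitals for each base that differs from Fabp4. All are given in the coding direction, from GENCODE vM21 transcripts of the GRCm38 (mm10) build.
Fabp4, forward site, coding bases 65 to 85: aagaagtgggagtgggctttg
Fabp5, bases 71 to 91: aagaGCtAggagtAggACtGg
Fabp3, bases 65 to 85: aGTCaCtCggTgtgggctttg
Fabp4, reverse site, coding bases 227 to 248: cagacgacaggaaggtgaagag
Fabp5, bases 164 to 185: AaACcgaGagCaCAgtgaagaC
Fabp3, bases 227 to 248: cagaTgacCggaaggtCaagTC
Fabp5 differed from the Fabp4 sites at 7 of 21 and 8 of 22 bases, and Fabp3 at 6 and 5 bases. Over the whole coding sequence Fabp4 was identical to Fabp3 at 66.5% and to Fabp5 at 61.4% of aligned bases, with no run of identical bases longer than 14.

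The starts of the coding sequences are shown for the same 3 genes, to let the related genes be compared from their first codon, with the start codon in capitals.
Fabp4 (chr3:10204088-10208576, minus strand): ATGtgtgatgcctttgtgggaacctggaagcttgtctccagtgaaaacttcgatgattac
Fabp3 (chr4:130308595-130315463, plus strand): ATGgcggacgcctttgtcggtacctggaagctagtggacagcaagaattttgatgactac
Fabp5 (chr3:10012548-10016607, plus strand): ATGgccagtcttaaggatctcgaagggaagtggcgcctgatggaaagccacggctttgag
No stretch of 30 bases of the Fabp4 transcript occurred in a transcript of another gene. Of the Fabp5 transcript, 320 of 958 stretches of 30 bases did, with up to 264 in the pseudogene Gm6166, and of the Fabp3 transcript 300 of 794 did, 283 of them in the pseudogene Fabp3-ps1. Fabp3 also overlaps Gm10570 and Zcchc17 on the opposite strand, and the counting of strand and of shared reads is not given in the sources used here, so the counts of Fabp3 and Fabp5 are uncertain.

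Compared per kilobase of transcript, Fabp4 stood far above the other 9 genes, with a mean of 6358.5 CPM per kilobase over the 4 libraries. Fabp5 (262), Gpihbp1 (206), Lpl (162) and Cd36 (130.4 CPM per kilobase) followed, and the range over the 4 libraries of each of these overlapped with that of the next, while Fabp5 lay above Lpl and Cd36, and Gpihbp1 above Cd36, without overlap. The order of Gpihbp1 and Lpl turned between the groups, with means of 235 and 121 CPM per kilobase in control and of 176 and 203 CPM per kilobase in fructose. These levels are given without removal of the transcript length and GC content trends described below. With both trends removed, the ratio of Lpl to Gpihbp1 was 1.38 times as high in fructose, against 2.25 times without. Whether their order turns then was not tested. Lpl was above Cd36 in each of the 4 libraries. Angptl4 (60.2), Slc27a1 (30.2) and Slc27a4 (15.7 CPM per kilobase) were each separated from their neighbours. Vldlr (8.72) and Fabp3 (7.88 CPM per kilobase) were lowest and overlapped.

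Between the groups, 2 of the 10 genes rose in fructose (Lpl and Cd36), 1 fell (Gpihbp1) and 7 did not pass the test (edgeR's quasi-likelihood test, Benjamini-Hochberg adjusted p-value under 0.05). Of all tested genes, 15.5% were called higher and 10.7% lower, so 2 and 1 of 10 are near the share of all genes. At a fold change above 1.3 with p under 0.05 before adjustment, thresholds that the study's methods apply to DESeq2, edgeR gave 3 higher genes (Fabp3 in addition) and 1 lower, against 17.6% and 6.18% of all tested genes. DESeq2 gave 2 higher and 1 lower, against 10.8% and 4.65% of the 16360 genes with a p-value, with an unadjusted p-value of 0.117 for Fabp3. Both fructose libraries were above both control libraries for 4 genes and below them for 4, against 33.4% and 31.6% of all tested genes, and the groups overlapped for Slc27a1 and Fabp5. Without control library 2, 4 of the 10 genes were called higher and 3 lower, against 15% and 11.6% of all tested genes, and without control library 1, 3 and 2, against 17.5% and 13.1%. The calls of Lpl, Cd36 and Gpihbp1 were kept with each library left out. The median log2 fold change of the 10 genes was 0.0083, and that of all tested genes was 0.0025.

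**Figure D1:**
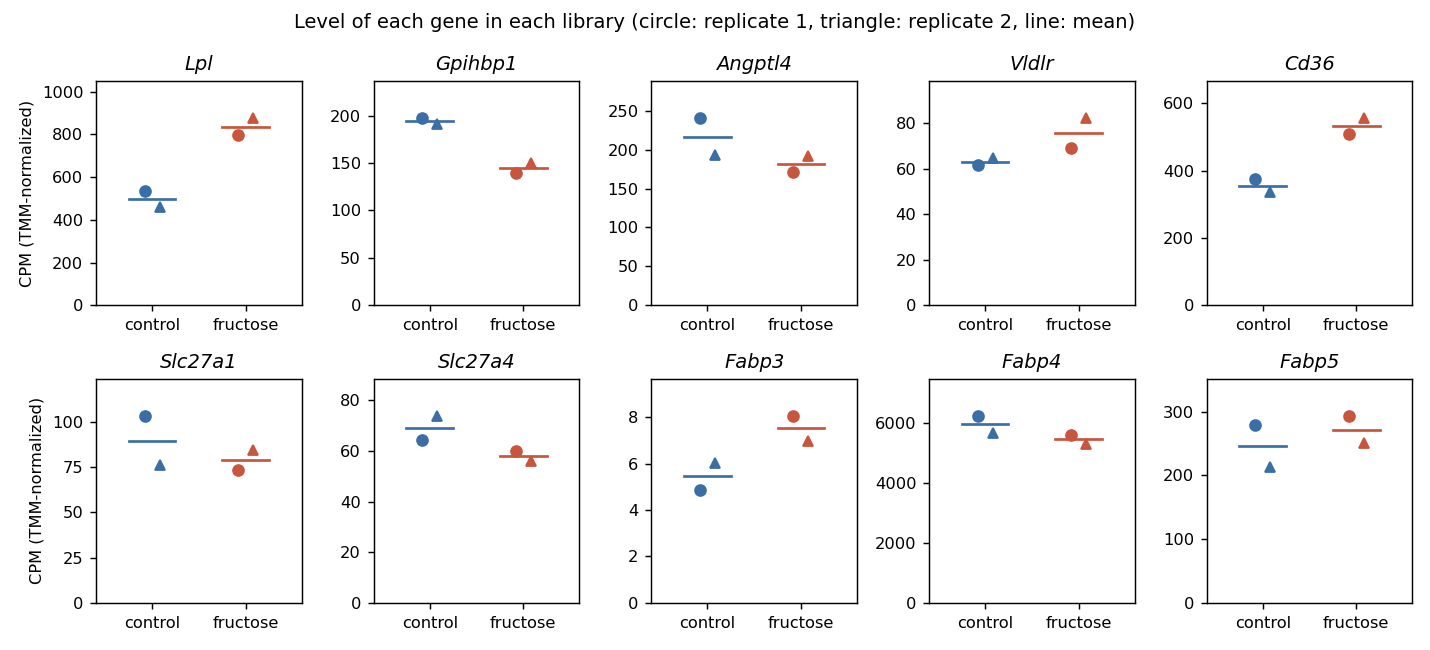
Level of each of the 10 genes in CPM (vertical axis, starting at 0, a separate scale for each gene) in control (blue) and fructose (red) libraries, with a circle for replicate 1, a triangle for replicate 2 and a line for the mean of 2 libraries. Lpl and Cd36 lie higher and Gpihbp1 lower in both fructose libraries, and the groups overlap for Slc27a1 and Fabp5.

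Of the lipolysis genes, Lpl rose, Gpihbp1 fell, and Angptl4 did not pass the test. Lpl (ENSMUSG00000015568, chr8:68880491-68907448), the lipase itself, had 534 and 459 CPM in control and 797 and 875 CPM in fructose. Both fructose values exceeded both control values, with means of 497 ± 53.2 and 836 ± 55.1 CPM (SD, n = 2 each). The log2 fold change was 0.75 with an SE of 0.10 and a 95% interval from 0.54 to 0.96, and the adjusted p-value by edgeR was 0.000537. Lpl remained called in the same direction under each of the 16 alternatives tried, with log2 fold changes of 0.40 to 0.87.

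Gpihbp1 (ENSMUSG00000022579, chr15:75596628-75599481), the endothelial carrier of LPL, had 197 and 191 CPM in control and 139.8 and 150.2 CPM in fructose. Its groups did not overlap, and the log2 fold change was −0.42 with an SE of 0.08 (adjusted p-value by edgeR 0.00403). This call was lost with the transcript length trend removed (−0.15, adjusted p-value 0.256) and with both trends removed (−0.05, adjusted p-value 0.762). The endothelial markers, among which Gpihbp1 is not counted, held 1 gene called higher (Erg, 0.75) and 3 called lower (Cldn5 with −0.51, Esam with −0.28 and Egfl7 with −0.26) of 15 tested, and with both trends removed 1 higher and 0 lower. The summed endothelial level was 2258 to 2274 CPM in control and 2001 to 2083 CPM in fructose, and its part in the value of Gpihbp1 was not tested. Esam and Egfl7 lost their calls without control library 2 and without either fructose library.

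Angptl4 (ENSMUSG00000002289, chr17:33773750-33781830), the inhibitor of LPL, had 240.2 and 193 CPM in control and 171 and 192 CPM in fructose. The highest fructose library lay just under the lowest control library, and the difference did not pass the test (log2 fold change −0.25, SE 0.11, adjusted p-value by edgeR 0.101). Without control library 2 the adjusted p-value was 0.000275 (−0.40), and without control library 1 the log2 fold change was −0.09.

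The balance of these 3 genes within a library does not depend on how libraries are scaled. Per kilobase of transcript, the ratio of Lpl to Gpihbp1 was 0.543 and 0.482 in control, against 1.14 and 1.17 in fructose, so its mean was 2.25 times as high in fructose. The ratio of Lpl to Angptl4 was 1.79 and 1.91 in control and 3.74 and 3.66 in fructose, with means of 1.85 and 3.70. The fold changes with both trends removed give 1.38 times for Lpl to Gpihbp1 and 1.59 times for Lpl to Angptl4. Neither ratio overlapped between the groups, and Lpl and Gpihbp1 differ both in transcript length (4115 and 825 bases) and in GC content (43.5% and 55.8%).

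The lipoprotein receptor Vldlr (ENSMUSG00000024924, chr19:27216484-27254231) had 61.8 and 64.6 CPM in control and 69.3 and 82.2 CPM in fructose. The groups did not overlap, and the log2 fold change of 0.26 (SE 0.10) did not pass the test (adjusted p-value by edgeR 0.0638). It turned to −0.15 with the length trend removed and to −0.30 with both trends removed. It was called without control library 2 (0.29, adjusted p-value 0.0221) and without fructose library 1 (0.38, adjusted p-value 0.0223). At 7971 bases, Vldlr has the longest transcript of the 10 genes.

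Of the membrane proteins, Cd36 rose and neither transport protein passed the test. Cd36 (ENSMUSG00000002944, chr5:17781690-17888801), a fatty acid receptor of adipocytes, muscle, endothelium and macrophages, had 375 and 335 CPM in control and 508 and 555 CPM in fructose. Both fructose libraries were above both control libraries, with means of 355 ± 28.1 and 531 ± 33.1 CPM (SD, n = 2 each). The log2 fold change was 0.58 with an SE of 0.09 and a 95% interval from 0.38 to 0.78 (adjusted p-value by edgeR 0.00132). With the GC content trend removed it turned to −0.16 (adjusted p-value 0.208), and with both trends removed to −0.08 (adjusted p-value 0.617). At 38.4%, the Cd36 transcript has the lowest GC content of the 10 genes. Of 14 macrophage markers tested, 2 were higher and 2 lower, with summed levels of 204 to 271 CPM in control and 212 to 224 CPM in fructose, and with 1 library left out 0 to 4 were higher and 0 to 4 lower.

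Slc27a1 (ENSMUSG00000031808, chr8:71568882-71587302), the transport protein FATP1, had 103 and 76.1 CPM in control and 73.6 and 84.5 CPM in fructose. The groups overlapped, and the log2 fold change of −0.18 (SE 0.13, 95% interval −0.46 to 0.09) did not pass the test (adjusted p-value by edgeR 0.308). It was −0.38 (adjusted p-value 0.00101) without control library 2, 0.055 without control library 1, −0.084 without fructose library 1, −0.28 without fructose library 2 and 0.017 with the GC content trend removed. Slc27a4 (ENSMUSG00000059316, chr2:29802634-29817522), the transport protein FATP4, had 64.5 and 73.7 CPM in control and 60.1 and 55.9 CPM in fructose. Both fructose libraries were below both control libraries, and the log2 fold change of −0.25 (SE 0.09) did not pass the test (adjusted p-value by edgeR 0.0646), but did without control library 1 (−0.35, adjusted p-value 0.00481). Per kilobase, the ratio of Cd36 to Slc27a1 was 2.99 and 3.62 in control and 5.67 and 5.40 in fructose, without overlap. Its mean was 1.68 times as high in fructose, and the fold changes with both trends removed give 0.938 times.

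None of the 3 binding proteins passed the adjusted p-value. Fabp4 (ENSMUSG00000062515), the main binding protein of adipocytes, had 6221 and 5674 CPM in control and 5586 and 5307 CPM in fructose. The groups did not overlap, but the gap between the nearest libraries of the groups was smaller than the spread within a group. The log2 fold change was −0.13 with an SE of 0.10 and a 95% interval from −0.34 to 0.09 (adjusted p-value by edgeR 0.361). This value moved to 0.13 with the length trend removed, to −0.72 (adjusted p-value 0.00136) with the GC content trend removed and to −0.40 (adjusted p-value 0.0436) with both removed. The last call was lost with the longest transcript of each gene (−0.37, adjusted p-value 0.0590) and with the replicate block (−0.40, adjusted p-value 0.0923). The adipocyte markers, which do not include Fabp4, held 6 genes called lower and none called higher of 11 tested by edgeR (at an unadjusted p-value under 0.05, 6 lower and 0 higher, by DESeq2, 5 lower and 0 higher, and with both trends removed, 0 of either), with summed levels of 13642 to 14617 CPM in control and 11593 to 11615 CPM in fructose. Over all tested genes, edgeR called 10.7% lower and 15.5% higher. Most of the marker calls were lost with either fructose library left out, and fewer with either control library left out. A marker was called higher with either control library or fructose library 2 left out.

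Fabp5 (ENSMUSG00000027533), a binding protein of many tissues, had 279 and 213 CPM in control and 293 and 251 CPM in fructose. The groups overlapped, and the log2 fold change of 0.14 (SE 0.12, 95% interval −0.12 to 0.41) did not pass the test (adjusted p-value by edgeR 0.408). It was 0.35 (adjusted p-value 0.00206) without control library 1, −0.037 without control library 2, 0.030 without fructose library 1 and 0.25 without fructose library 2. With the length trend removed it was 0.39 (adjusted p-value 0.0269), and with the GC content trend removed −0.066. Fabp3 (ENSMUSG00000028773), the form best known from heart and skeletal muscle, had 92 and 109 counts in control and 182 and 171 counts in fructose, or 4.86, 6.04, 8.05 and 6.98 CPM. The fructose values both lay above the control values, and the log2 fold change of 0.46 (SE 0.19) had an adjusted p-value by edgeR of 0.0960, while with both trends removed it was 0.79 (adjusted p-value 0.0313) and without control library 2 it was 0.63 (adjusted p-value 0.0414). The skeletal muscle markers moved the same way (18 of 19 tested called higher, Acta1 by 1.15 and Mylpf by 0.98 on the log2 scale). The 2 tested cardiomyocyte markers, Myl4 and Tnnt2, were called higher by edgeR and 0 by DESeq2. Both edgeR calls were lost without fructose library 1. Of the 7 listed cardiomyocyte markers, Nppa, Nppb, Tnni3 and Myl7 were at or under 3 counts in every library, Nppb at 0. Their part in the values of Fabp3, Lpl and Cd36, which muscle also expresses, was not tested. Per kilobase, the ratio of Fabp4 to Fabp3 was 1177 and 862 in control, against 638 and 698 in fructose. That of Fabp4 to Fabp5 was 24.6 and 29.3 in control and 21.0 and 23.3 in fructose. The mean ratios were 0.655 and 0.822 times as high in fructose, and the fold changes with both trends removed give 0.439 and 0.654 times. Both ratios rest on the uncertain counts of Fabp3 or Fabp5.

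Fold changes across all genes followed the length and the base composition of the transcript, and the 10 genes differ widely in both. Over 12884 tested genes with a transcript length, Spearman's rho of the log2 fold change was 0.50 with length and −0.53 with GC content, a description over genes that share the same 4 libraries. Lpl (4115 bases) and Cd36 (3399 bases) have transcripts with a GC content of 43.5% and 38.4%. Gpihbp1 has 825 bases and 55.8%. With both trends removed from each library, 2 of the 10 genes were called higher (Lpl and Fabp3), against 3.53% of all tested genes, and 1 was called lower (Fabp4), against 2.99%. The call of Fabp4 was lost with the replicate block and with the longest transcript. Lpl was the one gene called in the same direction with and without the trends removed.

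**Figure D2:**
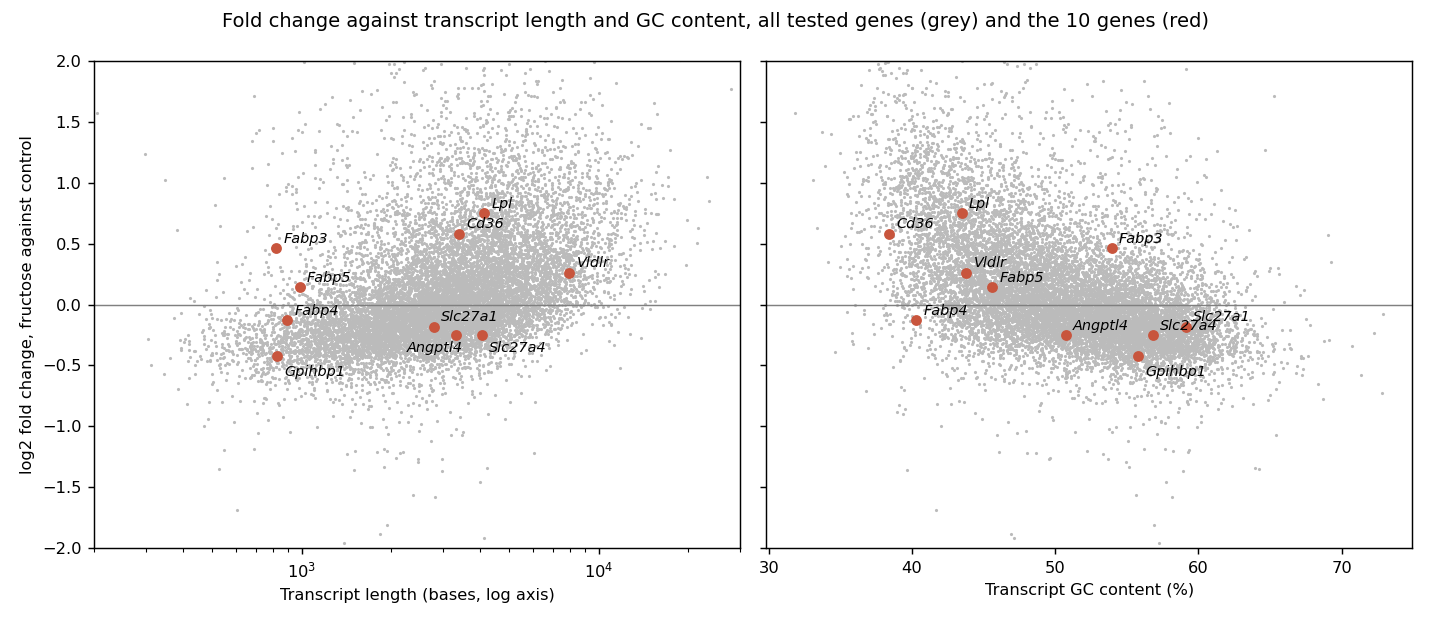
Log2 fold change of fructose against control (vertical axis, drawn from −2 to 2, with 77 tested genes outside it) against transcript length in bases (left, log axis) and transcript GC content in percent (right), with 1 grey point for each tested gene and red points for the 10 genes. Grey points rise with length and fall with GC content; Cd36 and Lpl lie at low and Gpihbp1 at high GC content.

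**Figure D3:**
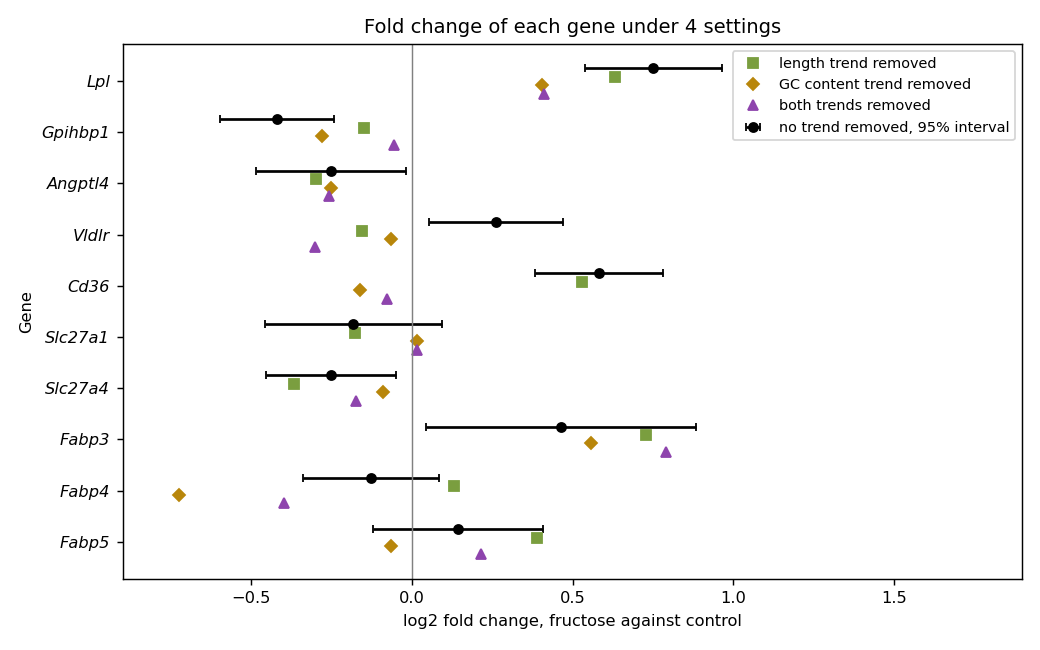
Log2 fold change of fructose against control (horizontal axis) for each of the 10 genes, with black circles and 95% intervals for the test with no trend removed, green squares with the length trend, ochre diamonds with the GC content trend and purple triangles with both trends removed. Lpl stays above 0 in all 4, whereas Cd36 goes from 0.58 to −0.08 and Gpihbp1 from −0.42 to −0.05 with both trends removed.

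The other genes of the same pathways were described from 8 lists, which hold 75 genes besides the 10. Of the 60 that were tested, 10 were higher and 7 lower, a share near the 15.5% and 10.7% of all tested genes. With both trends removed these counts were 3 and 2, against 3.53% and 2.99%. The number of lower pathway genes was larger with either control library left out and smaller with either fructose library left out. The number over all tested genes moved the same way. Of the pathway calls with all libraries, those of Lrp6, Sorl1, Acbd5, Nrp1 and Ppara were kept with each library left out. Each of the others was lost with at least 1 library out.

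In lipolysis, Lmf1, which LPL needs in order to fold, and its relative Lmf2 both fell. Lmf1 had 84.3 and 69.0 CPM in control and 59.1 and 64.3 CPM in fructose (log2 fold change −0.31, SE 0.10, adjusted p-value by edgeR 0.0421). Lmf2 had 56.6 and 59.0 CPM in control and 43.9 and 45.6 CPM in fructose (−0.37, SE 0.09, adjusted p-value by edgeR 0.00949). Neither call held with both trends removed. Of the abundant apolipoprotein genes, Apoe, whose product receptors bind, overlapped between the groups (−0.36, adjusted p-value by edgeR 0.187), as did Apoc1 (−0.44, 0.0784). Apoa5, an activator of LPL made in the liver, had 0 counts in every library. With Lpl and Gpihbp1 counted, 1 of 15 tested genes of the list rose and 3 fell, and the median log2 fold change was −0.08.

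Of 12 tested lipoprotein receptors 2 rose, each in both fructose libraries above both control libraries. Lrp6 had 21.3 and 16.4 CPM in control and 31.7 and 36.7 CPM in fructose (log2 fold change 0.86, SE 0.13, adjusted p-value by edgeR 0.00128). Sorl1 had 29.5 and 19.5 CPM in control and 57.2 and 41.5 CPM in fructose (1.01, SE 0.18, adjusted p-value by edgeR 0.00248), and neither call held with both trends removed. The most abundant receptors, Scarb1 (−0.21, adjusted p-value 0.0909), Sort1 (0.02, 0.873) and Lrp1 (−0.04, 0.766), did not pass the test, although Lrp1 was called lower (−0.41) with both trends removed. Lrp2 had at most 1 count in a library.

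Of 12 tested membrane uptake genes, Cd36 rose and Mfsd2a, a carrier of lysophospholipids with long fatty acids, fell. Mfsd2a had 11 and 13 counts in control and 3 and 4 counts in fructose, close to the 3 counts taken as the floor (log2 fold change −2.09, SE 0.63, adjusted p-value by edgeR 0.0302). Its call was lost with both trends removed (adjusted p-value 0.0958), and DESeq2 called 0 genes of the list lower. Zdhhc5, an enzyme that attaches palmitate to CD36, was between 89.1 and 96.3 CPM in the 4 libraries (0.01, adjusted p-value 0.960). Slc27a5, the liver transport protein, had at most 1 count.

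Acyl-CoA synthetases, which trap fatty acids in the cell by joining them to coenzyme A, had 5 tested genes, of which 3 rose. Of all tested genes, 15.5% were called higher, and each of the 3 calls was lost with at least 1 library out. Acsl5 had 136 and 140.0 CPM in control and 210.5 and 165 CPM in fructose (log2 fold change 0.44, SE 0.11, adjusted p-value by edgeR 0.0111). Acsl3 (0.64, adjusted p-value 0.0341) and Acsl4 (0.98, adjusted p-value 0.0109), which lies on the X chromosome, were less abundant. Acsl1, the most abundant by far, had 1681 and 1739 CPM in control, against 2006 and 1916 CPM in fructose, and did not pass the test (0.20, adjusted p-value 0.116), nor did Acsf2 (0.06, 0.654). None of the 5 was called with both trends removed, and Acsl6 and Acsbg2 had at most 1 count.

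The intracellular lipid-binding family, to which the 3 FABPs belong, had no called gene among 7 tested by edgeR, with 1 gene at an unadjusted p-value under 0.05 (Fabp3) and 0 by DESeq2. Fabp1, Fabp2, Fabp6, Fabp9 and Pmp2 had 0 counts in every library, and Fabp12 and Rbp2 had at most 1 and 2 counts, so that besides the FABPs described above the most abundant member was Rbp7, a retinol-binding protein (16.8 to 24.4 CPM, log2 fold change −0.12). Of 6 tested acyl-CoA-binding genes, Acbd5, which tethers peroxisomes to the endoplasmic reticulum, rose from 8.13 and 6.82 CPM to 15.0 and 16.7 CPM (1.08, SE 0.15, adjusted p-value by edgeR 0.000862), also with both trends removed (0.54, adjusted p-value 0.0414). Acbd3 rose (0.46, adjusted p-value by edgeR 0.0312), but not with both trends removed (0.28, adjusted p-value 0.248). Acbd6 fell (−0.29, adjusted p-value by edgeR 0.0270), also with both trends removed (−0.61, adjusted p-value 0.0031). The abundant binding proteins Dbi (−0.07, adjusted p-value 0.579) and Scp2 (0.06, 0.652) and the gene next in level, Acbd4 (−0.21, 0.105), did not pass the test, and Acbd7 had 0 counts in every library.

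Among genes by which endothelium is known to control fatty acid uptake, the VEGF receptors Flt1 and Nrp1 rose. Nrp1 had 39.7 and 38.0 CPM in control and 52.5 and 56.5 CPM in fructose (log2 fold change 0.49, SE 0.09, adjusted p-value by edgeR 0.00306), and it was also called with both trends removed (0.44). Flt1 had 44.3 and 47.7 CPM in control and 58.0 and 67.6 CPM in fructose (0.45, adjusted p-value by edgeR 0.00699), and was not called then. Their ligand Vegfb did not pass the test (−0.26, adjusted p-value 0.0529), and neither did Aplnr, the apelin receptor (−0.19, 0.328).

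The nuclear receptors PPAR and RXR bind fatty acids and switch on many of the genes above, Lpl, Cd36, Angptl4 and Fabp4 among them. Ppara, the form tied to fatty acid oxidation, rose from 82.9 and 74.8 CPM to 126 and 141 CPM (log2 fold change 0.76, SE 0.09, adjusted p-value by edgeR 0.000348) and was at 0.77 with both trends removed (adjusted p-value 0.00121). Pparg, the adipocyte form and the most abundant, had 339 and 326 CPM in control, against 296 and 317 CPM in fructose, and did not pass the test (−0.12, adjusted p-value 0.320), nor did Rxra (−0.15, 0.191). Ppard (−0.29, adjusted p-value 0.0423), Rxrb (−0.34, 0.0122) and Rxrg (−0.34, 0.0105) fell, none of them with both trends removed.

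**Figure D4:**
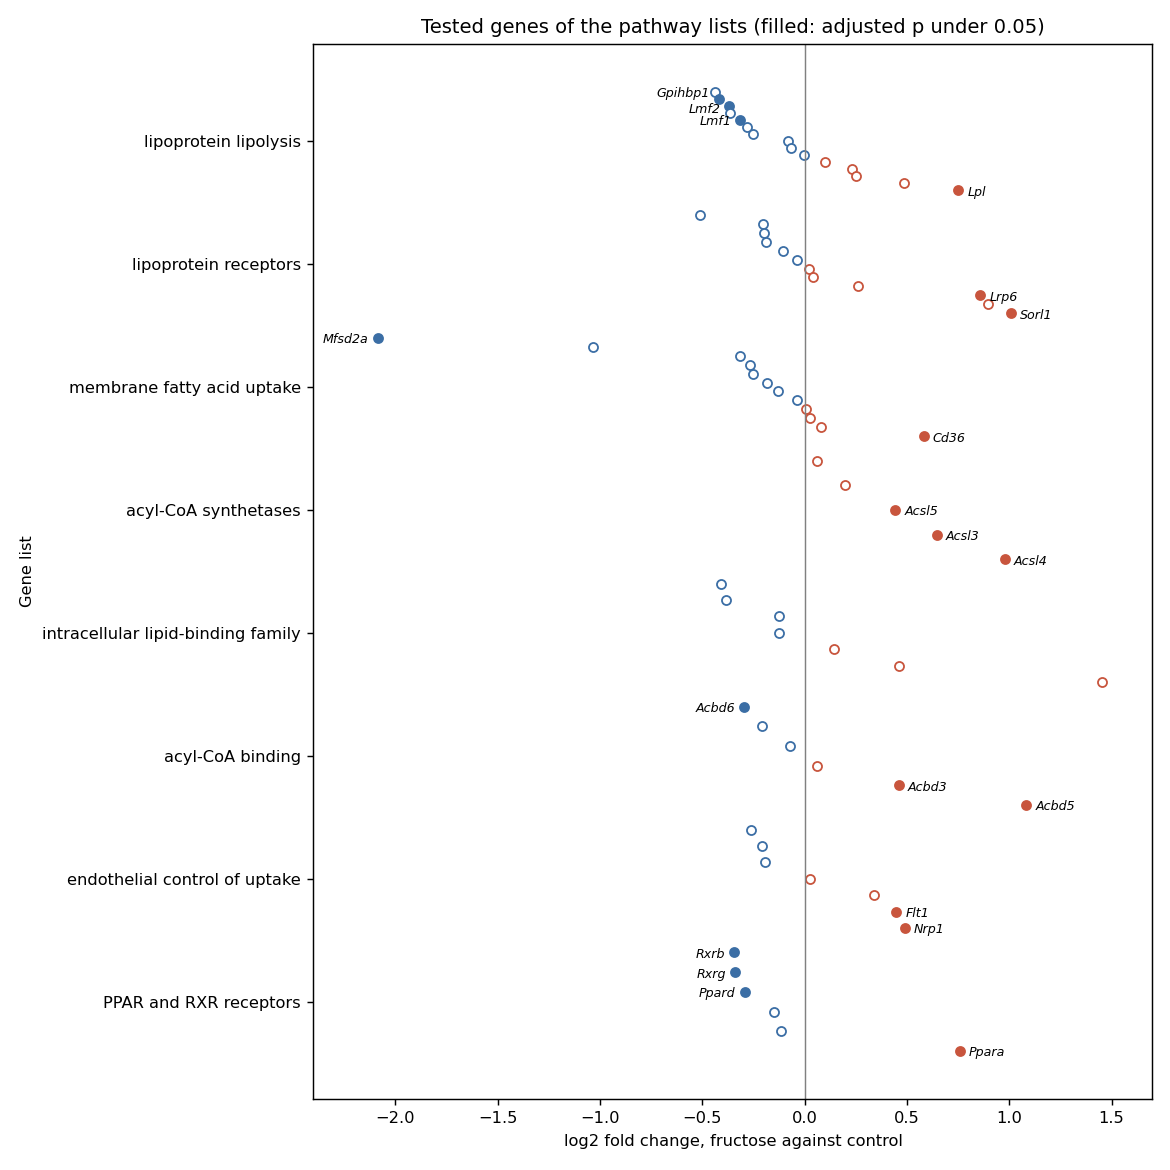
Log2 fold change of fructose against control (horizontal axis) for each tested gene of the 8 pathway lists (rows, genes spread vertically in order of fold change), in red above 0 and blue below 0. Filled points passed an adjusted p-value under 0.05 and carry the gene's name; 3 synthetases, 2 lipoprotein receptors and Ppara stand to the right, and Mfsd2a, a gene of few counts, far to the left.

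Markers of the other cell types that a fetal BAT sample could hold gave the following values. Of 10 brown adipocyte markers 3 were higher and 1 lower by edgeR, 2 higher and 1 lower by DESeq2, and 1 higher and 0 lower with both trends removed. Their summed levels were 13776 to 16484 CPM in control and 13516 to 15026 CPM in fructose, most of it Ucp1 (9606 to 12425 CPM in the 4 libraries). Of 7 tested erythroid markers 5 were lower (0 with both trends removed), with summed levels of 15294 to 19204 CPM in control and 11766 to 12141 CPM in fructose. The 8 tested fibroblast markers held no called gene by edgeR (1 at an unadjusted p-value under 0.05 and 0 by DESeq2), with summed levels of 4354 to 5065 CPM in control and 4924 to 4990 CPM in fructose. Epidermis markers (7 of 10 at or under 3 counts in every library, Krt14, Dsg3 and Ivl at 0) and liver markers (6 of 8 at or under 3 counts, Afp, Ttr, Serpina1a and Fgb at 0) were near absent, apart from Trf, which overlapped between the groups. How far these cell types take part in the values of the 10 genes was not tested.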

How the data were processed

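RNA-seq was performed on fetal BAT, with 2 control and 2 fructose libraries grouped by the labels' treatment field. The authors filtered reads with Fastp, mapped them to mm10 with Bowtie2 and Tophat, assembled transcripts with StringTie and merged them with Cuffmerge. They deposited raw counts per gene, without normalization, and whether fetuses were pooled into a library is not given in the sources used here. The counting tool, its annotation and its treatment of strand are not given in the sources used here. The 4 single-library tables and the joint table were identical in their counts.

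Genes kept by filterByExpr (12888) were tested with edgeR 4.0.16 (quasi-likelihood test, TMM, two-sided, Benjamini-Hochberg adjustment over all of them) in R 4.3.3, with no covariate. The SE of a log2 fold change is its size divided by the root of the F statistic, and its interval covers 95%. Symbols, coordinates, transcript lengths and GC content came from GENCODE vM21 (GRCm38), with 1 transcript per gene and 43 of 22298 identifiers unmatched; sequences were read with Python 3.11.15. The alternatives were DESeq2 1.42.0, edgeR with DESeq2's size factors, library size as the only scaling, leaving mitochondrially encoded and haemoglobin genes out of the library sizes, no filter, at least 10 counts in every library, a replicate block, removal of the length trend, the GC content trend or both (lowess, span 0.3, as offsets) and of both with the block, and each library left out. Removal of both trends with the longest transcript was added after seeing the data.

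The 10 genes and all lists were chosen with earlier results of these data known. Named in the text are the 10 genes, from each pathway list the genes with an adjusted p-value under 0.05, the 3 of highest level and those at or under 3 counts in every library, up to 3 genes of each marker list, those called counted, and the Y-linked genes. Other marker genes at 0 were chosen after their values were seen. 1 gene of a pathway list is not reported here and is left out of that list's counts. No gene is named for likeness to another, since 4 libraries in 2 groups give no measure of it. The depth of 18542897 to 23645147 counts puts the floor of 3 counts at 0.127 to 0.162 CPM.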

Additional observations from a re-analysis of the deposited data

How the results depend on the processing

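Lpl kept its direction and its call under all 16 alternatives. Removal of the length trend gave −0.15 for Gpihbp1, −0.15 for Vldlr, −0.37 for Slc27a4, 0.73 for Fabp3, 0.13 for Fabp4 and 0.39 for Fabp5 (log2), called for Slc27a4, Fabp3 and Fabp5, and the cause of these shifts was not tested. Removal of the GC content trend gave −0.067 for Vldlr, −0.16 for Cd36, 0.017 for Slc27a1, −0.72 for Fabp4 (called) and −0.066 for Fabp5. Removal of both gave −0.054 for Gpihbp1, −0.30 for Vldlr, −0.077 for Cd36, 0.015 for Slc27a1, and called values of 0.79 for Fabp3 and −0.40 for Fabp4. With the longest transcript these were −0.19 for Gpihbp1, −0.30 for Vldlr, −0.049 for Cd36, 0.028 for Slc27a1 and 0.81 for Fabp3 (called). Vldlr was called with library size only (0.32) and with no filter (0.27). Of the 10 genes, 4 were called higher and 1 lower with the length trend removed, against 1173 and 987 of the 12888 tested genes. With the GC content trend removed, 1 was called higher and 2 lower, against 978 and 984 of all tested genes. With both trends removed by the longest transcript, 2 were called higher and 0 lower, against 429 and 406. Of the other pathway genes, 4, 6, 3 and 2 were called higher with the length trend, the GC content trend, both and both by the longest transcript removed, and 2 lower under each of the last 3, against 4 lower with library size only and 3 by DESeq2. The median of the 10 genes was −0.079 with the GC content trend removed and −0.11 by the longest transcript.

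The replicate numbers mark no shared animal or litter in the labels, and the deviations of same-numbered libraries had a correlation of −0.052 across genes. With the replicate block, Vldlr was called (0.26, adjusted p-value by edgeR 0.0460) and no other call of the 10 genes changed, with 2117 higher and 1441 lower over all genes. The replicate block with both trends removed gave −0.057 for Gpihbp1, −0.30 for Vldlr, −0.077 for Cd36, 0.025 for Slc27a1 and a called 0.79 for Fabp3, and 0 of the 10 genes called lower, with 5 other pathway genes higher and 3 lower.

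Leaving out 1 library leaves a lone library in a group, which is assumed to vary like the others. The log2 fold change then ranged from −0.40 to −0.086 for Angptl4, 0.14 to 0.38 for Vldlr, −0.38 to 0.055 for Slc27a1, −0.35 to −0.15 for Slc27a4, 0.31 to 0.63 for Fabp3 and −0.037 to 0.35 for Fabp5. Of the 10 genes 2 to 4 were called higher and 1 to 3 lower, of the other pathway genes 7 to 13 and 2 to 12, and the median of the 10 genes ranged from −0.095 to 0.14. Without control library 2, 4 of the 10 genes were called higher and 3 lower, and 12 other pathway genes lower; without fructose library 1, 3 of these were lower, and without fructose library 2, 2. Over all genes, 1266 to 2254 were called higher and 527 to 1685 lower. These counts were 2001 and 1379 with all libraries, 1280 higher by DESeq2, 1173 higher with the length trend removed, 978 higher without the GC content trend, 455 and 385 without both, 554 and 426 with both and the block, and 429 and 406 by the longest transcript. With library size only, 859 were called lower and 72.3% of calls were higher, against 59.2%. Depth limits Mfsd2a and the genes at or under 3 counts, and intervals cover no more than the spread of these 4 libraries.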
